A study of Mus musculus with 10 samples.

Results

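Bone morphogenetic proteins (Bmps) and the secreted proteins that bind them were examined in the mouse molar at the bud and cap stages. The 9 genes were taken by name, 6 Bmp ligands (*Bmp2*, *Bmp3*, *Bmp4*, *Bmp5*, *Bmp6* and *Bmp7*) and 3 antagonists (*Nog*, *Chrd* and *Sostdc1*), and were found by Ensembl gene ID among the 27528 genes of the table. All 9 had a value on all 10 arrays. They were taken as named members of the family, with no threshold on a measured value, but with earlier results of these data known.

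RNA came from molar 1 tooth germs of wild type NMRI mice, an outbred laboratory stock, with no treatment named for either group. On the embryonic day labelled E13.5 the epithelium forms a bud within condensed mesenchyme, and at E14.5 it has folded into a cap around the dental papilla, with the enamel knot, an epithelial signalling centre, at its tip. Between 12 and 18 germs were pooled per sample, and 5 samples were hybridised at each stage, each to its own Affymetrix Mouse Exon 1.0 array. Replicates are numbered 1, 2, 4, 5 and 6 at both stages. The germs were whole, so epithelium and mesenchyme were measured together, and fewer cells of a type cannot be told apart from less RNA per cell. The study calls the samples biological replicas, but neither it nor the labels say whether the pools came from separate litters. The p-values therefore measure the spread between these samples, which may be technical in part.

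Bmps are secreted dimers of the Tgfb superfamily. They bring together type I and type II serine/threonine kinase receptors on the receiving cell, and the type I receptor then phosphorylates Smad1, Smad5 and Smad9, which enter the nucleus with Smad4. Antagonists bind the ligand outside the cell and keep it from its receptors. In the tooth Bmp4 is known as a signal exchanged between epithelium and mesenchyme, and Bmp2, Bmp4 and Bmp7 are known products of the enamel knot.

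Signals are on the log2 scale, where a difference of 1 is a doubling, and changes are E14.5 minus E13.5. Array medians ran from 5.06 to 5.22, and the SD of signals over genes was smallest on E14.5 replicate 4 (1.51) and largest on E13.5 replicate 6 (1.74). Marker genes were used as a weak check of the tissue label. The 5 dental epithelium genes (*Trp63*, *Cdh3*, *Foxi3*, *Perp* and *Lama3*) and the 5 dental mesenchyme genes (*Pax9*, *Lhx6*, *Lhx8*, *Barx1* and *Pdgfra*) all had stage means above those array medians. So did the bone genes *Runx2*, *Alpl* and *Bglap* and the general stroma genes, so this does not single out dental tissue. E13.5 replicate 1 had the lowest median of the epithelial genes at its stage, 7.36 against 7.60 to 7.76 on the other 4 arrays, and E14.5 replicate 4 the lowest at its stage, 7.94 against 8.27 to 8.51. Such a median is the signal of 1 gene of the list. The values 7.36 and 7.94 equal the lowest *Trp63* signals of their stages, so they do not show a shift of the whole list. Where the call of any of the 9 genes changed without either array, the value is given with and without it.

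Between the stages *Bmp2* and *Sostdc1* rose, *Bmp4* and *Bmp6* fell, and the other 5 genes did not pass the test. The test was limma's moderated test with Benjamini-Hochberg adjustment over all 27528 genes, two-sided, at a threshold of 0.05. By this test 7.85% of all genes were called, 4.36% higher and 3.49% lower at E14.5, so 4 of 9 is a larger share than in the table as a whole. That background counts dim genes too. With the genes under the median mean signal left out, 2412 genes were called, against 2162 in the full table. More genes were thus called among fewer genes tested. The share among brighter genes was therefore well above 7.85%, and 4 of 9 stands less far above it. That share was not worked out here. The filter removed *Bmp5*, and 5 of the remaining Bmp ligands and antagonists were called, *Bmp7* being the added one. The median change was 0.21 over the 9 genes and -0.0145 over all genes. Bud and cap arrays were fully separate in the same 4 of the 9 genes, against 8.84% of all genes.

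**Figure D1:**
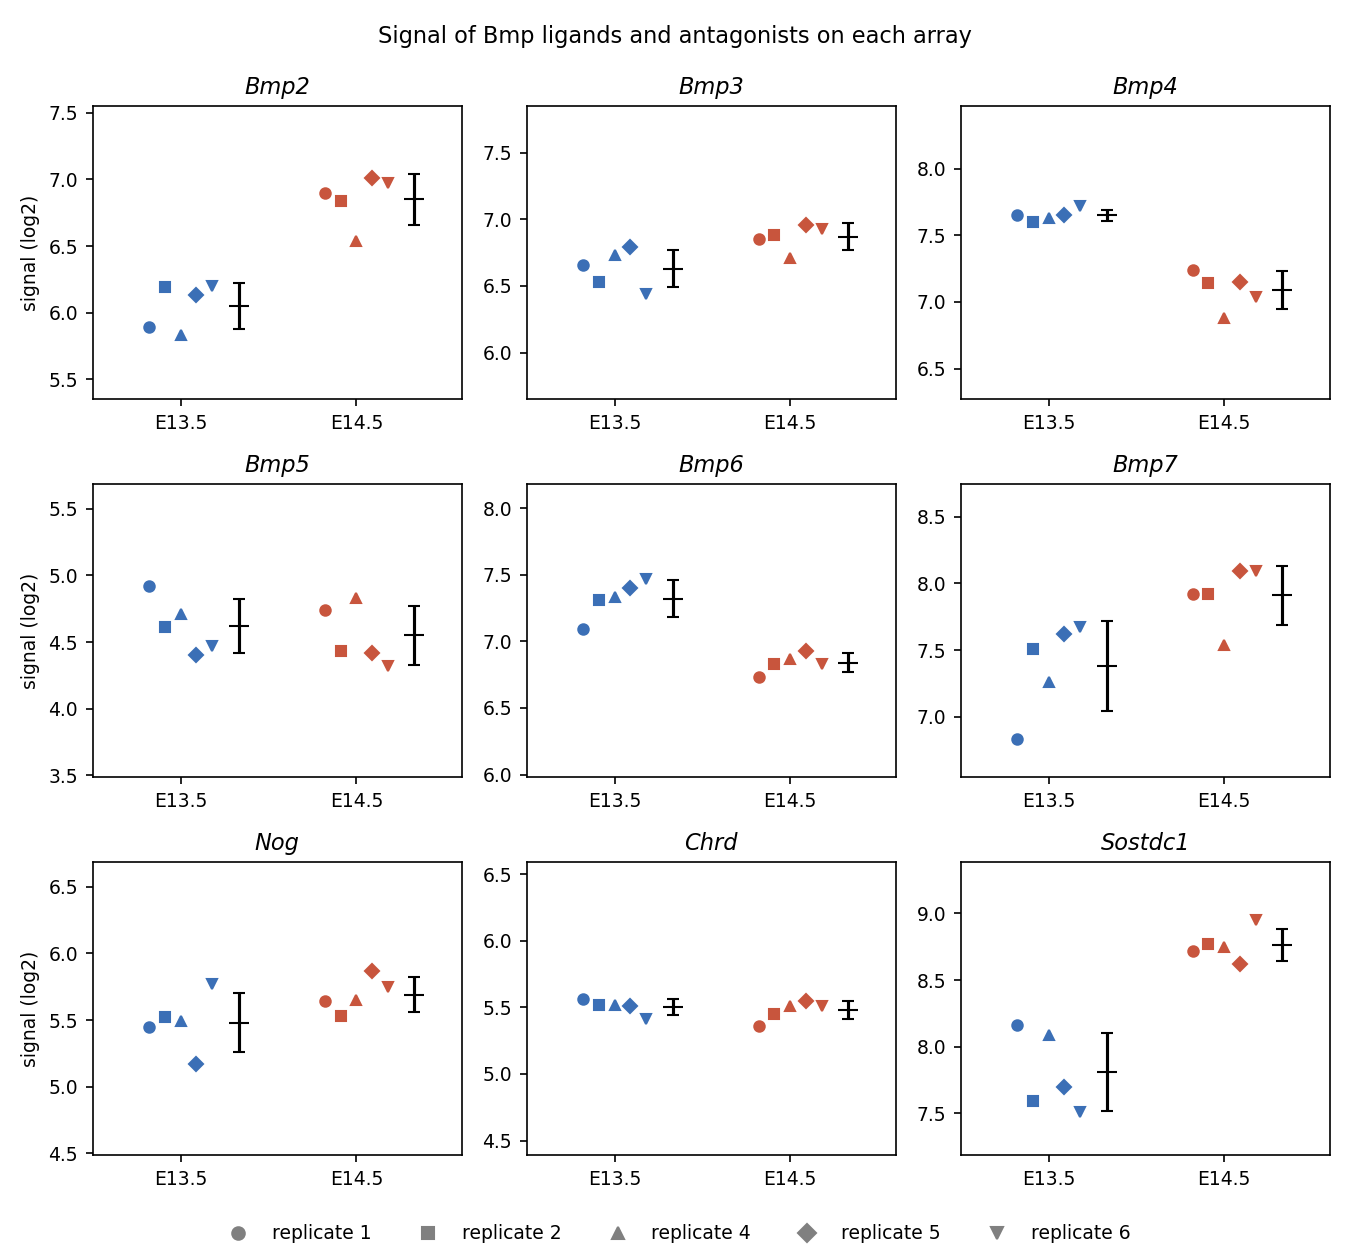
Log2 signal of the 9 genes on each array (points), with the mean and SD of the 5 arrays at E13.5 (bud) and at E14.5 (cap). Each panel has its own range, all of the same height, and the points of the stages are separate for *Bmp2*, *Bmp4*, *Bmp6* and *Sostdc1*.

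*Bmp2* (ENSMUSG00000027358) and *Bmp4* (ENSMUSG00000021835) encode closely related ligands and moved in opposite directions. *Bmp2* read 5.89, 6.19, 5.83, 6.13 and 6.20 on the E13.5 arrays (replicates 1, 2, 4, 5 and 6, the order used throughout) and 6.90, 6.84, 6.54, 7.01 and 6.97 on the E14.5 arrays. Every cap array was above every bud array. The bud mean was 6.05 ± 0.17 and the cap mean 6.85 ± 0.19 (SD, n = 5 arrays each), giving a rise of 0.81 ± 0.11 (SE, 95% interval 0.57 to 1.04, limma adjusted p = 0.000623), or 1.75-fold.

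*Bmp4* read 7.65, 7.60, 7.63, 7.65 and 7.72 at E13.5 and 7.24, 7.14, 6.88, 7.15 and 7.04 at E14.5. The bud arrays lay within a narrow band, and every cap array was below it. The bud mean was 7.65 ± 0.04 and the cap mean 7.09 ± 0.14 (SD, n = 5), giving a change of -0.56 ± 0.07 (SE, 95% interval -0.72 to -0.40, limma adjusted p = 0.000596), which is 1.47-fold lower.

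*Bmp6* (ENSMUSG00000039004), of the subgroup that also holds *Bmp5* and *Bmp7*, fell as well. It read 7.09, 7.31, 7.33, 7.40 and 7.47 at E13.5 and 6.73, 6.83, 6.87, 6.93 and 6.83 at E14.5, again without overlap. The change was -0.48 ± 0.08 (SE, 95% interval -0.65 to -0.31, limma adjusted p = 0.00222), from 7.32 ± 0.14 to 6.84 ± 0.07 (SD, n = 5), or 1.40-fold lower.

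The promoters of the ligands that fell are shown beside that of *Bmp5*, which was not called, because these 3 had a usable entry in the promoter table. They are from RefSeq on GRCm38.p6, 250 bases ending just before the gene start, read 5′ to 3′ on the gene's strand, with capitals marking the GC box (GGGCGG or its reverse complement CCGCCC).
*Bmp4* promoter, chr14:46390670-46390919, minus strand: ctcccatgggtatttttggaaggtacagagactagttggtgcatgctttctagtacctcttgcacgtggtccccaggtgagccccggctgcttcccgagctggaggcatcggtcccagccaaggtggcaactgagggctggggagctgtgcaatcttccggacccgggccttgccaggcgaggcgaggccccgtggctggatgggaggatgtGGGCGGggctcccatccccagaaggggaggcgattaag
*Bmp6* promoter, chr13:38345466-38345715, plus strand: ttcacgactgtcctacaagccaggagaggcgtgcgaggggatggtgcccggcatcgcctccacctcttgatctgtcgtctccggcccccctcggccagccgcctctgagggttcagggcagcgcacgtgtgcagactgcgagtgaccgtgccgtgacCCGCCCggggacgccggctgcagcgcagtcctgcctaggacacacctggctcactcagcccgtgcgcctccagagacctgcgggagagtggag
*Bmp5* promoter, chr9:75775115-75775364, plus strand: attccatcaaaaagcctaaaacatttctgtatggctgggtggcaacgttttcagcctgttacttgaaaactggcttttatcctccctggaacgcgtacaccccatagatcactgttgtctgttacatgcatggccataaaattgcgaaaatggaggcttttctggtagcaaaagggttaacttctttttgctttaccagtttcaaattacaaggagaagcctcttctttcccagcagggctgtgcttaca
The windows of *Bmp4* and *Bmp6* were GC-rich, at 63.2% and 68.8% G and C (percentiles 79.2 and 89.0 of 32841 promoter windows, whose median was 52.4%), whereas that of *Bmp5* had 42.8% (percentile 17.9). Both of the former held 1 GC box, which 32.7% of all windows hold, and the *Bmp5* window held none. The E box CANNTG, found in 66.2% of all windows, occurred 3 times in *Bmp4*, 2 times in *Bmp6* and 0 times in *Bmp5*. None of the 3 held GGCGCC, known as a Bmp-type Smad motif (9.59% of all windows), TATAAA (12.4%) or the Msx motif TAATTG (7.17%), all searched on both strands. Such matches describe the letters of these windows and are not shown to be sites. Of the 9 genes, 4 had an entry in the table, the fourth being *Chrd*, whose window did not end at the gene start and is not shown. *Chrd* was not called either, but unlike that of *Bmp5* its window was GC-rich, at 78.0% (percentile 97.9). It held 4 GC boxes, 1 GGCGCC and 0 E boxes.

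*Bmp7* (ENSMUSG00000008999), a broadly expressed ligand that can pair with Bmp2 or Bmp4, read 6.83, 7.51, 7.26, 7.62 and 7.67 at E13.5 and 7.92, 7.92, 7.54, 8.09 and 8.09 at E14.5. The spread was widest at the bud stage, where replicate 1 was the lowest array, and among the cap arrays E14.5 replicate 4 alone lay within the bud range. The mean went from 7.38 ± 0.34 to 7.91 ± 0.22 (SD, n = 5), and the difference of 0.54 ± 0.16 (SE, 95% interval 0.18 to 0.89, limma adjusted p = 0.071) did not pass. Without E14.5 replicate 4 the difference was 0.63 and passed (limma adjusted p = 0.0343). Quantile normalization also brought it past the threshold (0.57, limma adjusted p = 0.035), and its adjusted p ran from 0.0146 to 0.177 over the alternatives.

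*Bmp3* (ENSMUSG00000029335), an atypical ligand known to oppose other Bmps, read 6.66, 6.53, 6.73, 6.79 and 6.44 at E13.5 and 6.85, 6.88, 6.71, 6.96 and 6.93 at E14.5. E14.5 replicate 4 again fell within the bud range, and the difference of 0.23 ± 0.08 (SE, 95% interval 0.05 to 0.41, limma adjusted p = 0.129) did not pass.

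*Bmp5* (ENSMUSG00000032179) read 4.92, 4.61, 4.71, 4.40 and 4.47 at E13.5 and 4.74, 4.43, 4.83, 4.42 and 4.32 at E14.5. It was the dimmest of the 9 genes on average at both stages, its means of 4.62 ± 0.20 and 4.55 ± 0.22 (SD, n = 5) standing at percentiles 38.9 and 37.1 of all genes, and no detection call was used here. The arrays of the stages were intermingled, with a difference of -0.07 ± 0.12 (SE, 95% interval -0.34 to 0.20, limma adjusted p = 0.867).

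Of the antagonists, *Sostdc1* (ENSMUSG00000036169), also called ectodin or Wise, encodes a secreted inhibitor that binds Bmps and the Wnt co-receptors Lrp5 and Lrp6. It read 8.16, 7.59, 8.09, 7.70 and 7.51 at E13.5 and 8.72, 8.77, 8.75, 8.62 and 8.95 at E14.5. The bud arrays were spread out and the cap arrays close together, all above the bud range. The rise was 0.95 ± 0.13 (SE, 95% interval 0.67 to 1.23, limma adjusted p = 0.000715), from 7.81 ± 0.29 to 8.76 ± 0.12 (SD, n = 5), or 1.93-fold, the largest change of the 9 genes. Its mean stood at percentile 93.0 of all genes in the bud and 98.3 in the cap.

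*Nog* (ENSMUSG00000048616) encodes noggin, which covers the receptor-binding faces of the Bmp dimer. It read 5.45, 5.52, 5.49, 5.17 and 5.77 at E13.5 and 5.64, 5.53, 5.65, 5.87 and 5.75 at E14.5, and the stages overlapped. The difference was 0.21 ± 0.11 (SE, 95% interval -0.02 to 0.44, limma adjusted p = 0.335), and over the alternatives it ran from 0.13 to 0.35 (limma adjusted p 0.0539 to 0.613) without a call. *Chrd* (ENSMUSG00000006958) encodes chordin, an antagonist that is itself cut by tolloid proteases. It read 5.56, 5.52, 5.52, 5.51 and 5.41 at E13.5 and 5.36, 5.45, 5.51, 5.55 and 5.51 at E14.5, a difference of -0.03 ± 0.06 (SE, 95% interval -0.16 to 0.11, limma adjusted p = 0.915). This interval was among the narrowest of the 9, and a change of the *Chrd* signal as large as that of *Bmp4* lies outside it. The *Chrd* means stood at percentiles 56.9 and 56.7 of all genes, and no detection call was used. How far so low a signal follows the transcript was not tested.

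**Figure D2:**
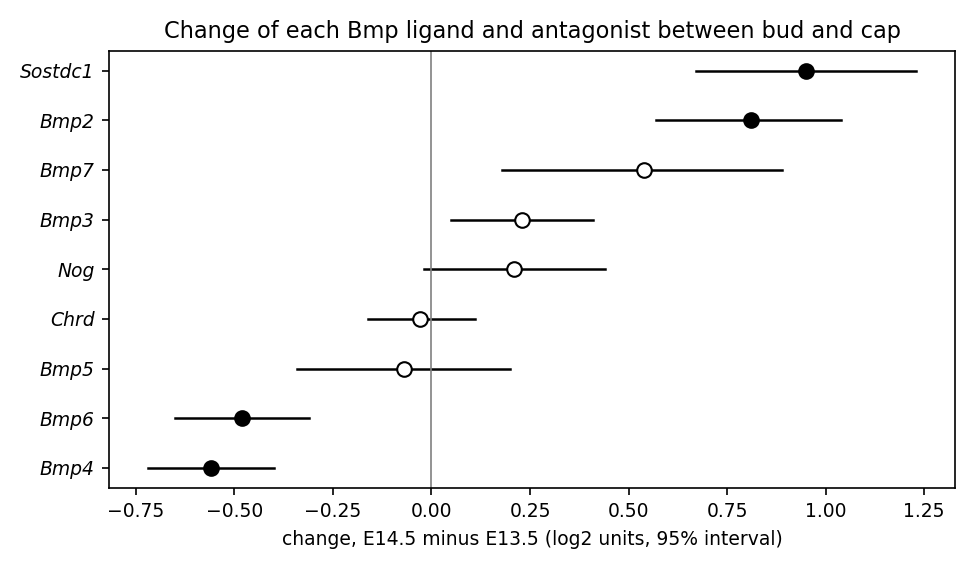
Change of each gene in log2 units, E14.5 minus E13.5, with its 95% interval from limma and filled points for an adjusted p under 0.05. The intervals of *Bmp2* and *Sostdc1* lie above 0, those of *Bmp4* and *Bmp6* below it, and those of *Bmp3* and *Bmp7* exclude 0 although these genes did not pass after adjustment over all genes.

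Because the ligands moved in opposite directions, the difference between pairs of genes was taken on each array, which cancels shifts shared by a whole array. These differences are given without a test, since the pairs were chosen with the changes known. *Bmp2* minus *Bmp4* was -1.60 ± 0.17 in the bud and -0.24 ± 0.13 in the cap (SD, n = 5), a change of 1.36 with no overlap of arrays. *Bmp7* minus *Bmp4* went from -0.27 ± 0.34 to 0.82 ± 0.17 (SD, n = 5). *Bmp7* read below *Bmp4* on all 5 bud arrays, by -0.82 to -0.03, and above it on all 5 cap arrays, by 0.67 to 1.05. *Bmp7* minus *Bmp6* went from 0.06 ± 0.21 to 1.08 ± 0.23 (SD, n = 5), also without overlap.

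The antagonist that rose was set against the ligands in the same way. *Sostdc1* minus *Bmp4* went from 0.16 ± 0.31 to 1.67 ± 0.21 (SD, n = 5), a change of 1.51 without overlap, the largest of the 6 differences taken. *Sostdc1* minus *Bmp2* was 1.77 ± 0.46 and 1.91 ± 0.22 (SD, n = 5), and *Sostdc1* minus *Bmp7* was 0.43 ± 0.62 and 0.85 ± 0.24 (SD, n = 5). In these last pairs the stages overlapped.

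**Figure D3:**
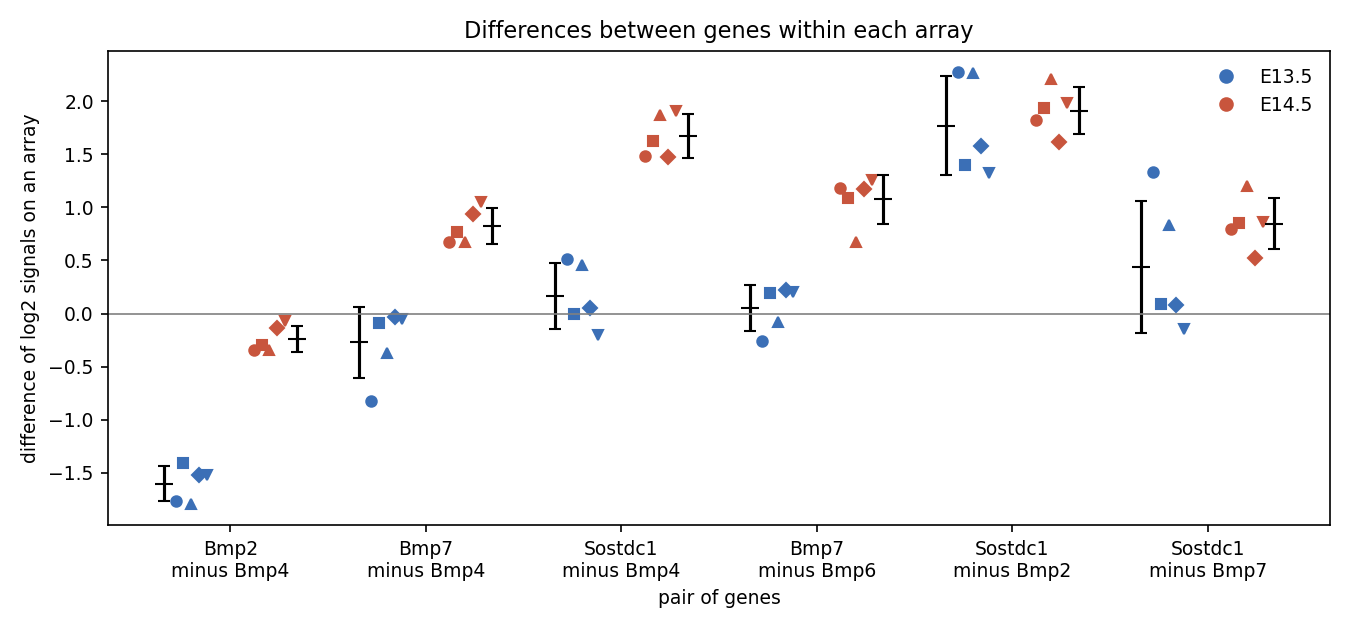
Difference in log2 signal between the genes of a pair within each array (points, shaped by replicate number), with the mean and SD of the 5 arrays at each stage. The stages are separate in the 3 pairs with *Bmp4* and in *Bmp7* minus *Bmp6*, and overlap in *Sostdc1* minus *Bmp2* and *Sostdc1* minus *Bmp7*.

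The order of the genes by signal also shifted, although signals of different genes depend on how well their probes bind and are not transcript numbers. At E13.5 *Sostdc1*, *Bmp4*, *Bmp7* and *Bmp6* formed the upper end, each overlapping the next over the arrays. *Bmp3* and *Bmp2* followed without overlap, then *Chrd* and *Nog*, which overlapped each other, and *Bmp5* at the bottom. At E14.5 *Sostdc1* was first and *Bmp7* next, each apart from its neighbours. *Bmp4*, *Bmp3*, *Bmp2* and *Bmp6* lay between 6.84 and 7.09 on average, each overlapping the next, above *Nog*, *Chrd* and *Bmp5*. Against all genes *Bmp4* went from percentile 91.4 to 84.6 and *Bmp2* from 66.5 to 80.9.

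The marker lists moved between the stages as well. Of the 5 epithelial genes 4 rose and none fell, *Foxi3* being the uncalled one (1.02, limma adjusted p = 0.0513), with a median change of 0.69, and their summed level on the log2 scale went from 10.17 to 10.88 on the bud arrays to 11.34 to 11.61 on the cap arrays. All 5 mesenchymal genes fell, with a median change of -1.13, and their summed level went from 10.73 to 11.05 down to 9.67 to 9.82. Of the 4 general stroma genes, 2 rose (*Dcn* by 0.41 and *Col1a1* by 0.32), none fell, and the summed level went from 9.88 to 10.05 up to 10.27 to 10.35. The part of the epithelial and mesenchymal shifts in the changes of the Bmp genes was not tested.

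Of the 7 enamel knot genes 5 rose, with a median change of 0.95. *Shh*, the hedgehog ligand of the knot, rose by 2.02, and *Fgf4*, *Wnt10a*, *Cdkn1a* and *Fgf3* rose by 1.59, 1.46, 0.95 and 0.82, with limma adjusted p between 8.17e-06 and 0.00109. *Fgf20* lay close to the threshold, with a difference of 0.92 (limma adjusted p = 0.0549) that was called after quantile normalization (limma adjusted p = 0.0432). *Fgf9* had a difference of -0.01 (limma adjusted p = 0.978). The summed level of the list went from 8.75 to 9.27 on the bud arrays to 10.13 to 10.52 on the cap arrays. Of 5 bone genes, *Spp1* and *Alpl* rose by 1.89 and 0.74, while *Runx2*, *Bglap* and *Dmp1* did not pass. None of the markers was listed at 0.

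**Figure D4:**
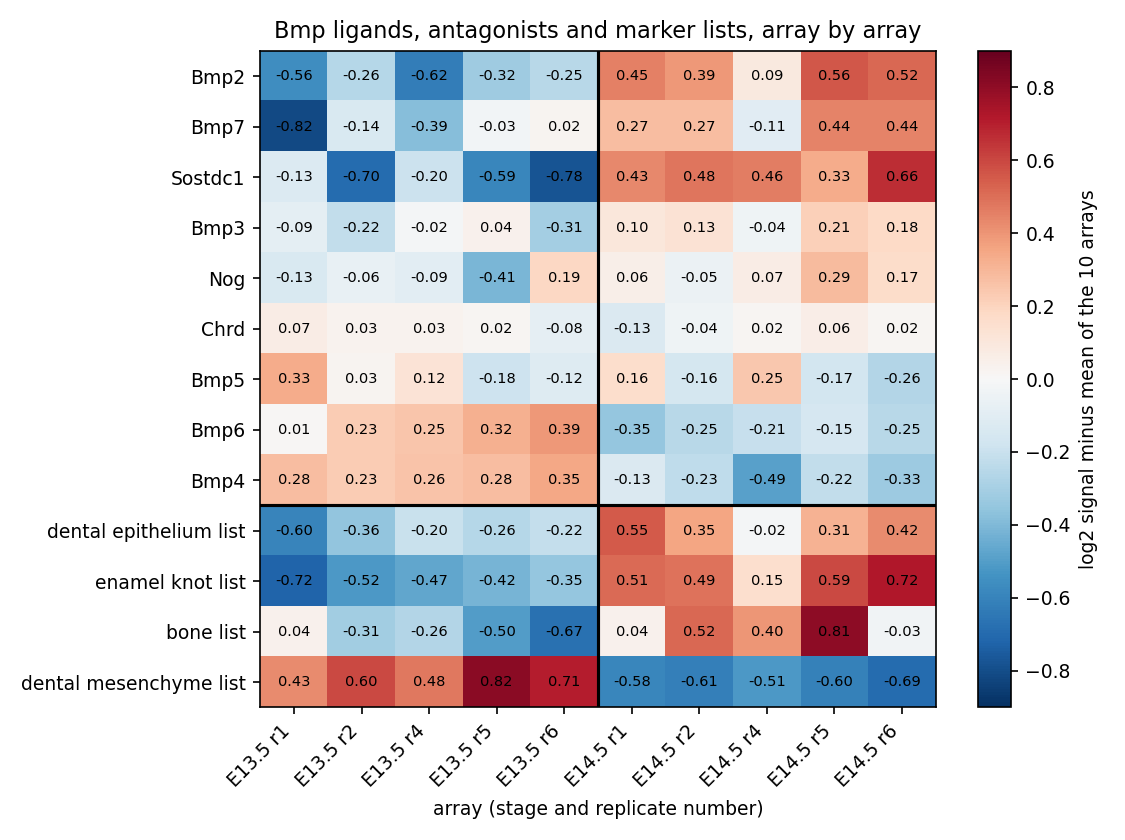
Log2 signal of each of the 9 genes and median of the epithelial, enamel knot, bone and mesenchymal marker lists on each array, minus its mean over the 10 arrays. Colours change side between the stages for *Bmp2*, *Bmp4*, *Bmp6* and *Sostdc1* and for the mesenchymal and enamel knot lists.

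Further members of the pathway were counted from lists of the study's pathway genes. Of 12 other superfamily ligands in the table, 3 rose and 1 fell, with a median change of 0.03. *Tgfb1* rose most, by 1.02 ± 0.08 (SE, limma adjusted p = 1.1e-05), followed by *Tgfb2* at 0.43 and *Inhbb* at 0.38. *Inhba*, the activin A subunit gene that the tooth mesenchyme is known to express, fell by 0.80, from 8.13 ± 0.21 to 7.32 ± 0.16 (SD, n = 5, limma adjusted p = 0.000804). Beside it *Fst*, which encodes the activin and Bmp binding protein follistatin, rose by 0.96 ± 0.14 (SE, limma adjusted p = 0.000906).

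Of 6 Bmp receptor genes, *Acvr1*, a type I receptor, passed and rose by 0.38 ± 0.06 (SE, limma adjusted p = 0.00164). The type I receptors *Bmpr1a* and *Bmpr1b* had differences of -0.14 and -0.23, and the type II receptors *Bmpr2*, *Acvr2a* and *Acvr2b* of 0.08, -0.27 and -0.14. None of these 5 passed. *Acvr2a* lay closest to the threshold (limma adjusted p = 0.0622), and passed with quantile normalization (-0.238, limma adjusted p = 0.0365).

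Among the Smads, *Smad9* fell by 0.63 ± 0.06 (SE, limma adjusted p = 0.0001). *Smad1*, *Smad5* and *Smad4* had differences of 0.08, -0.08 and -0.07 and did not pass. Of 7 genes known to respond to Bmps, *Msx2* and *Cdkn1a* rose, by 0.77 and 0.95, and *Msx1* and *Dlx1* fell, by 0.98 and 0.59, all with limma adjusted p of 0.000195 or below. *Cdkn1a* is in the enamel knot list as well and was counted in both. *Lef1*, *Dlx2* and *Egr1* did not pass, at 0.26, 0.08 and 0.56.

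**Figure D5:**
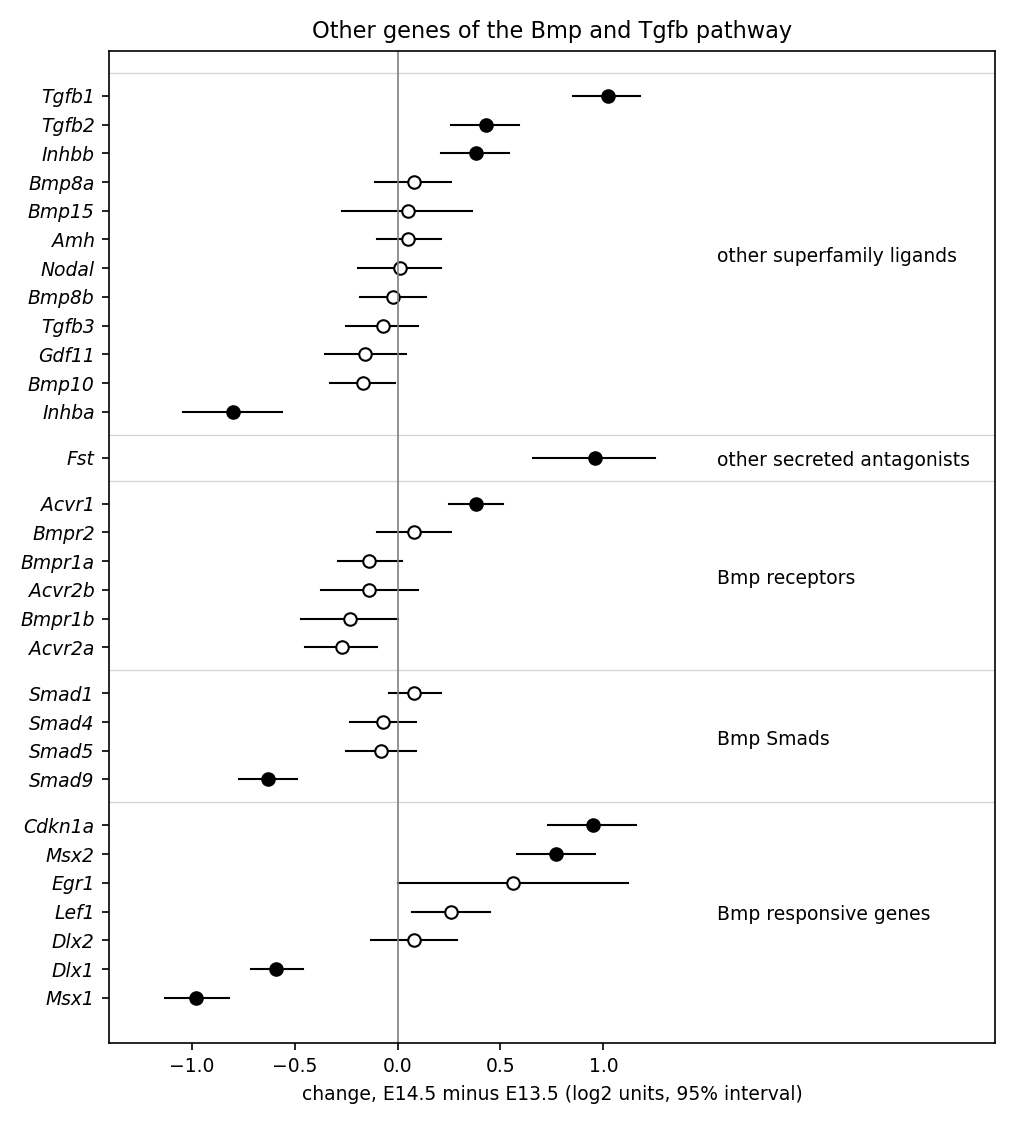
Change in log2 units, E14.5 minus E13.5, of the other ligands, *Fst*, receptors, Smads and Bmp responsive genes, with 95% intervals and filled points for a limma adjusted p under 0.05. *Tgfb1*, *Fst*, *Cdkn1a* and *Msx2* lie farthest to the right, and *Msx1*, *Inhba*, *Smad9* and *Dlx1* farthest to the left.

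Finally, genes with the most similar profile were sought among the 387 other genes of the table with a symbol in the study's lists, by the root mean square difference of mean-centred log2 signals over the 10 arrays. Closest to *Bmp2* were *Lrp4* at 0.109 and *Spry2* at 0.111, and closest to *Bmp4* were *Slit3* at 0.094 and *Dlx1* at 0.096. For *Bmp6* they were *Dlx1* at 0.113 and *Sfrp2* at 0.12. *Sostdc1* had no neighbour as near, with *Alpl* at 0.175 and *Msx2* at 0.204. The measure follows the change between stages above all, and each of these genes changed in the direction of the gene it was matched to.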

How the data were processed

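Tooth germ RNA was measured on Affymetrix Mouse Exon 1.0 arrays. The authors used aroma.affymetrix for normalization, with a Brainarray custom CDF (version 23) of Ensembl genes, and deposited 1 value per Ensembl gene and array. These deposited values were read as log2 signals from their range. The log base, background correction and summary model are not given in the sources used here. Neither scanner files nor detection calls or scan dates were used here, no scan batch was examined, and the number of arrays limits the precision.

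Stages were compared with limma 3.58.1 (lmFit, eBayes) in R 4.3.3, on all 10 arrays with no covariate, and Benjamini-Hochberg adjustment over 27528 genes. Tested on simulated data of this comparison with 27528 genes, it recovered 59 of 100 changes of 0.5 and 94 of 100 changes of 1 log2 unit, with 6 false calls. The simulated noise was independent between genes, and only 100 genes of each size were changed. Shifts shared by many genes on an array were not simulated, so these counts need not hold for the real arrays. Tables and plots used Python 3.11.15 with pandas 2.3.3, numpy 2.4.6 and matplotlib 3.10.9.

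The genes, although taken by name, and the lists were chosen with earlier results of these data known. Named are the 9 genes, all receptors and Smads, up to 6 called genes per list, and the 2 nearest profiles of each called gene. Uncalled genes of small lists were added after their values were seen. Symbols came from the study's tables, and the ID of *Chrd* from the choice of genes. Markers of muscle, cartilage, blood, endothelium and nerve had no ID there and were not tested. Some genes of the lists are not reported here and were left out of the list values. Alternatives were quantile normalization, median-centred arrays, a filter on dim genes, array weights, a trended robust prior, the replicate number as a block and each array left out.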

Additional observations from a re-analysis of the deposited data

Results flagged for a closer look

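For each gene named by the rule, the 5 values of a stage were searched for an array lying far from the others, with a gap to its neighbour larger than 0.71 of their whole range. This held in 6 of 98 such sets, where chance gives about 1 in 20, or 4.9. None of the 18 sets of the Bmp ligands and antagonists was among the 6.

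For *Acvr1*, E14.5 replicate 6 read 7.20 and the rest of its stage 7.01 to 7.05. For *Smad1*, E13.5 replicate 6 read 6.86 and the rest 6.67 to 6.70. For *Dlx1*, E14.5 replicate 1 read 6.81 and the rest 6.71 to 6.73. The cell cycle inhibitor gene *Cdkn1a* read 6.91 on E14.5 replicate 4, against 7.26 to 7.36. The epithelial gene *Perp* read 10.47 on E14.5 replicate 6, against 10.18 to 10.24. The mesenchymal gene *Lhx6* read 8.00 on E13.5 replicate 4, against 8.14 to 8.17.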

How the results depend on the processing

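*Bmp2*, *Bmp4*, *Bmp6* and *Sostdc1* kept their direction and their call, and *Bmp3* and *Nog* stayed uncalled, in all 16 alternatives, with changes of 0.75 to 0.88, -0.60 to -0.50, -0.54 to -0.44 and 0.87 to 1.04 for the first 4. *Bmp7* gained a call with quantile normalization (0.57), without dim genes (0.54), with array weights (0.55) and with the replicate number as a block (0.54, limma adjusted p = 0.0317); with each array left out it ranged from 0.40 to 0.63, passing without E14.5 replicate 4 alone. *Bmp5* ranged from -0.14 to 0.00145, the latter without E13.5 replicate 1, and *Chrd* from -0.0491 to 0.00314, the latter without E14.5 replicate 1, both uncalled. *Bmp5* was removed by the filter on dim genes. Array weights called 3911 genes in all, and with each array left out the count ran from 1479 to 2554, with 4 to 5 of the 9 genes called. The count of called receptors was 2 with quantile normalization and 2 with the replicate block, *Acvr2a* being added. In the other lists quantile normalization added *Lef1*, *Foxi3*, *Fbln1* and *Fgf20* and turned the uncalled *Fgf9* from -0.0116 to 0.0275.

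No label says that a replicate number marks a shared litter or day, and the arrays did not settle a pairing. Correlations of the deviations of same-numbered arrays ran from -0.0792 to 0.513, and 2 of 5 E13.5 and 3 of 5 E14.5 arrays correlated best with their own number. The replicate block changed the call of none of the 9 genes except *Bmp7*. In the other lists it removed the calls of *Trp63* (limma adjusted p = 0.0572) and *Dcn* (limma adjusted p = 0.0832) and added *Foxi3*, *Fbln1* and *Fgf20*. Signal over background was not used here, so how far *Bmp5*, *Nog* and *Chrd* lie above it was not tested.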

Other observations

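The bud arrays differed among themselves in several of the 9 genes, and these values were singled out after they were seen. *Sostdc1* was highest on E13.5 replicates 1 and 4, at 8.16 and 8.09, against 7.51 to 7.70 on the other 3. *Bmp7* was lowest on the same arrays, at 6.83 and 7.26, against 7.51 to 7.67. *Bmp2* was lowest there too, at 5.89 and 5.83, against 6.13 to 6.20. *Sostdc1* thus read high on the bud arrays where *Bmp2* and *Bmp7* read low, whereas between the stages *Bmp2* and *Sostdc1* rose together.

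E13.5 replicate 1 also had the highest *Bmp5* (4.92) and the lowest *Bmp6* (7.09) of the bud arrays. On that array the median was lowest for the epithelial genes (7.36) and the enamel knot genes (6.05) and highest for the bone genes (5.69, against 4.98 to 5.39). *Alpl*, the gene with the profile nearest to that of *Sostdc1*, read 6.96 there, against 6.04 to 6.48 on the other bud arrays. At the bud stage the enamel knot median equalled the *Cdkn1a* signal on each array. The bone median there was the signal of *Bglap*, which was not called between the stages. *Runx2* and *Alpl* always lay above *Bglap* in the bud, and *Spp1* and *Dmp1* below. The lowest and highest epithelial medians of the bud arrays, 7.36 and 7.76, equalled those of *Trp63*. Each of these bud medians thus follows 1 gene and does not show a shift of its whole list. E14.5 replicate 4 had the lowest *Bmp2*, *Bmp3*, *Bmp4* and *Bmp7* of the cap arrays, together with the lowest epithelial (7.94) and enamel knot (6.92) medians. It had the highest *Bmp5* of the cap arrays (4.83). Of all 10 arrays it also had the smallest SD of signals over genes (1.51) and the highest median (5.22). The parts of tissue makeup and of the spread of signals on an array in these array differences were not tested.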
